A study of Mus musculus with 12 samples.

Results

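Cholangiocyte and ductular reaction markers were followed in whole liver and in liver sinusoidal endothelial cells (LSEC, the cells that line the capillaries of the liver) of C57BL/6 mice with non-alcoholic steatohepatitis (NASH, fatty liver with inflammation and cell injury) and of mice on chow. The set held 9 genes taken by symbol: Krt7, Krt19, Krt23, Sox9, Epcam, Cftr, Cldn4, Tspan8 and Cd24a. All 9 were found once in the liver table of 16703 genes and once in the LSEC table of 16273 genes, and each averaged at least 10 normalized reads in both. The 4 groups, NASH liver, chow liver, NASH LSEC and chow LSEC, had 3 libraries each, and the series asks which genes differ between diseased and healthy mice in the organ and in its endothelium. Per the labels, disease was induced by 36 weeks on the NASH diet D09100301 (Research Diets). The same line stands under the chow samples, so how long these were kept is not given, nor are age or sex. LSEC were selected magnetically with CD146 beads from non-parenchymal cells after CD11b+ cells had been removed. The labels do not say whether libraries came from single or pooled animals, so p-values measure the spread between these libraries. No allele, transgene or drug is named in any group.

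Cholangiocytes are the epithelial cells of the bile ducts, which modify bile by secreting chloride, bicarbonate and water. When the liver is chronically injured, cells with bile duct features multiply or appear along the portal tracts, a change known as the ductular reaction. The genes studied here mark the parts of such a cell: its secretory channel, its junctions and surface glycoproteins, its keratin filaments and its lineage transcription factor.

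Recovered depth was 47000197 to 57397720 reads in liver and 18527017 to 19402863 in LSEC libraries. In liver, 46.0% of all genes passed the threshold (limma on log2 of normalized reads plus 1, Benjamini-Hochberg adjusted p under 0.05), 25.0% higher and 21.0% lower in NASH. In LSEC, 8.11% passed, 5.24% higher and 2.86% lower. Endothelial markers summed to 293090 to 327240 normalized reads in NASH LSEC and 450030 to 470840 in chow LSEC, and none of the 10 was at 0. LSEC libraries are numbered only to name them.

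In NASH liver, 8 of the 9 markers were higher than in chow liver, none was lower, and Krt23 did not pass the test. Against these 8 of 9 stands the 25.0% of all liver genes called higher. The median log2 fold change of the 9 was 2.59, against 0.02 over all liver genes. Those 8 markers were also higher in every NASH liver than in every chow liver, as were 29.8% of all liver genes. In NASH LSEC, 4 of the 9 were higher (Cftr, Cldn4, Tspan8 and Cd24a), against 5.24% of all LSEC genes, and none was lower. All 9 had an unadjusted p under 0.05 there, and their median log2 fold change was 1.76, against 6.78e-05 over all LSEC genes. In LSEC 6 markers had no overlap between the groups, as had 16.5% of all genes with higher values in NASH. In bulk libraries, more cells of a type and more RNA per cell cannot be told apart.

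**Figure D1:**
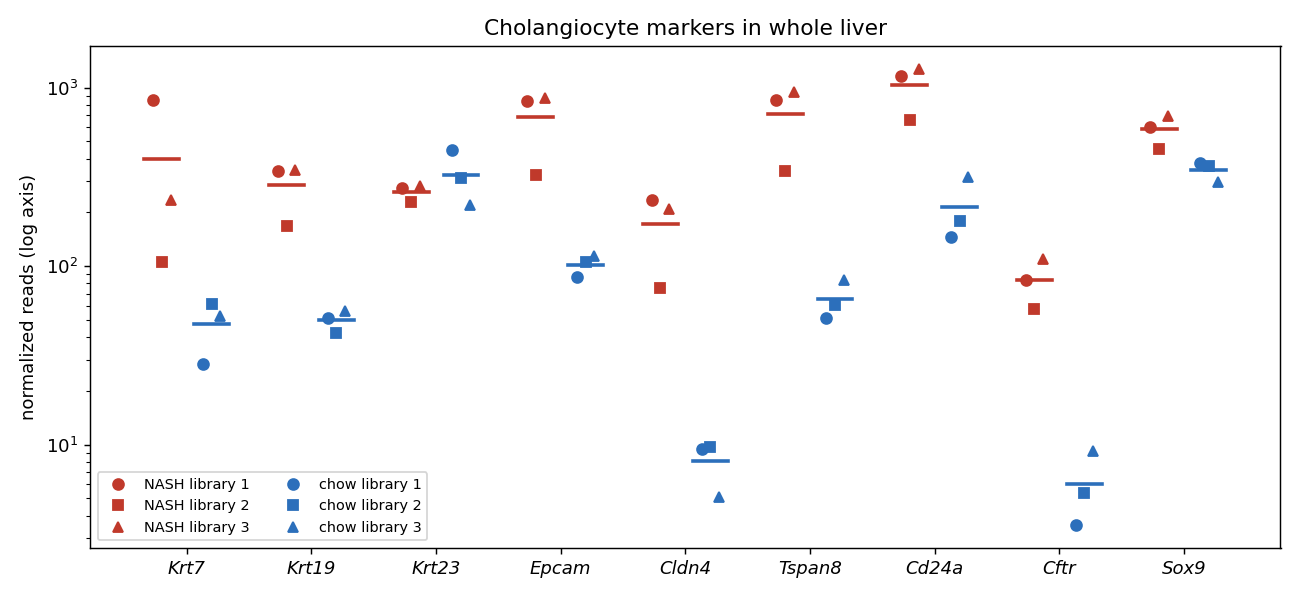
Normalized reads (log axis) of the 9 markers in whole liver, 1 point per library, NASH in red to the left of chow in blue, with bars at the group means. NASH library 2 is the lowest NASH library for all 9 markers, and Krt23 is the marker whose NASH and chow points overlap.

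Cftr, the chloride channel through which cholangiocytes secrete, had 83.5, 57.3 and 109 normalized reads in NASH livers, against 3.56, 5.40 and 9.23 in chow livers. Every NASH liver lay far above every chow liver. The chow values rest on 3, 5 and 9 recovered reads, so the level in chow is known only roughly. Its log2 fold change was 3.61 ± 0.40 (SE, n = 3 each; limma adjusted p = 9.83e-05). In LSEC libraries Cftr had 65.7, 315 and 131 normalized reads in NASH, against 15.7, 8.70 and 12.3 in chow. These groups did not overlap either, and NASH library 2 was the highest. Here the log2 fold change was 3.45 ± 0.57 (limma adjusted p = 0.0192). Cftr lies on chromosome 6 at 18170687 to 18322768 (mm10), and an antisense gene, Gm15592, shares exon bases with it on the other strand.

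Cldn4, a claudin of the tight junctions that seal the duct lining, rose most in liver. It had 233, 75.4 and 209 normalized reads in NASH livers, against 9.49, 9.71 and 5.13 in chow livers, with no overlap. Its log2 fold change was 4.14 ± 0.45 (SE, n = 3 each; limma adjusted p = 8.90e-05). NASH LSEC libraries held 111, 603 and 238 normalized reads of Cldn4 and chow LSEC libraries 16.7, 21.8 and 29.7. Again the groups were apart, and the lowest NASH library was still several times the highest chow library. The log2 fold change in LSEC was 3.45 ± 0.59 (limma adjusted p = 0.0205). Cldn4 lies on chromosome 5 at 134945119 to 134946934.

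Tspan8, a tetraspanin of epithelial cell surfaces, had 853, 343 and 949.9 normalized reads in NASH livers, against 51.0, 60.4 and 84.1 in chow livers. The groups were apart, with NASH library 2 the lowest of its group, and the log2 fold change was 3.33 ± 0.36 (SE, n = 3 each; limma adjusted p = 8.50e-05). In LSEC, Tspan8 had 327, 1822 and 593 normalized reads in NASH, against 59.5, 92.5 and 184 in chow, a log2 fold change of 2.80 ± 0.66 (limma adjusted p = 0.0461). These groups did not overlap, though chow library 3 stood above the other chow libraries. Tspan8 lies on chromosome 10 at 115816832 to 115849893, where the antisense gene 4930422I22Rik shares exon bases with it.

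Epcam, the adhesion molecule most used to isolate biliary epithelium, had 842, 326 and 875 normalized reads in NASH livers, against 86.6, 106 and 114 in chow livers. All NASH livers were above all chow livers, by a log2 fold change of 2.60 ± 0.33 (SE, n = 3 each; limma adjusted p = 0.000238). NASH LSEC libraries had 327, 1689.7 and 727 normalized reads of Epcam, against 158, 183 and 386 in chow LSEC. Here the groups overlapped, since chow library 3 exceeded NASH library 1. The log2 fold change of 1.72 ± 0.60 in LSEC did not pass the test (95% interval 0.31 to 3.13; limma adjusted p = 0.125). Epcam lies on chromosome 17 at 87635979 to 87651129.

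Cd24a, a glycoprotein anchored in the membrane of duct cells and also of B cells and neutrophils, had 1165, 656 and 1274 normalized reads in NASH livers, against 145, 179 and 316 in chow livers. No chow liver reached the lowest NASH liver, and the log2 fold change was 2.29 ± 0.31 (SE, n = 3 each; limma adjusted p = 0.000305). In LSEC, Cd24a had 991, 4562 and 1787 normalized reads in NASH, against 328, 422 and 616 in chow, a log2 fold change of 2.19 ± 0.52 (limma adjusted p = 0.0491). The LSEC groups were apart, with the call only just under the threshold. Of 7 B cell markers, 0 passed the limma test in either tissue, and the list summed to 1634 to 2928 normalized reads in NASH livers and 1013 to 3074 in chow livers. All 7 measured neutrophil markers were higher in NASH liver, against 25.0% of all liver genes. They summed to 1017 to 1338 normalized reads there, against 343 to 363 in chow liver. None of the 6 measured in LSEC passed, with sums of 176 to 268 in NASH and 58.3 to 220.4 in chow. No marker of either list was at 0 in all libraries, and their part in the Cd24a result was not tested. Cd24a lies on chromosome 10 at 43578284 to 43584265.

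Krt7 and Krt19 are the type II and type I keratins by which bile ducts are usually stained. Krt19 had 341, 168 and 343 normalized reads in NASH livers, against 51.0, 42.1 and 56.4 in chow livers, and the groups were well apart. Its log2 fold change was 2.42 ± 0.29 (SE, n = 3 each; limma adjusted p = 0.000156). Krt7 had 856, 106 and 233 normalized reads in NASH livers, against 28.5, 61.5 and 52.3 in chow livers. The NASH livers were all higher, but spread over 8.11-fold, the widest of the 9 markers. The log2 fold change of Krt7 was 2.59 ± 0.63 (limma adjusted p = 0.00781), with 1.78 without NASH library 1 (limma adjusted p = 0.0206) and 3.28 without NASH library 2 (limma adjusted p = 0.00228). Krt7 lies on chromosome 15 at 101411043 to 101430313, overlapped by the antisense gene Gm671, and Krt19 on chromosome 11 at 100140810 to 100148665.

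Neither keratin passed the test in LSEC. Krt19 had 173, 799.6 and 297 normalized reads in NASH LSEC, against 93.0, 137 and 109.5 in chow LSEC (log2 fold change 1.62 ± 0.52, limma adjusted p = 0.102). Krt7 had 127, 585 and 266 normalized reads in NASH LSEC, against 75.2, 76.2 and 86.0 in chow LSEC (log2 fold change 1.76 ± 0.50, limma adjusted p = 0.0785). For both keratins every NASH library exceeded every chow library, with NASH library 1 closest to the chow range. Without that library Krt7 passed (log2 fold change 2.31, limma adjusted p = 0.0417).

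Krt23, an acidic keratin described as inducible by stress in the ductular reaction of mice, was the exception in liver. It had 273, 229 and 282 normalized reads in NASH livers, against 445, 309.7 and 220.5 in chow livers. The groups overlapped, and the highest and the lowest values both belonged to chow. The log2 fold change was -0.26 ± 0.23 (SE, n = 3 each; 95% interval -0.78 to 0.26; limma adjusted p = 0.387), an interval that excludes the increases estimated for the other 8 markers, and the estimate was 0.15 (limma adjusted p = 0.608) when libraries were scaled by total reads. In LSEC, Krt23 had 78.3, 326 and 144 normalized reads in NASH, against 39.7, 34.8 and 79.8 in chow. NASH library 1 fell just short of the highest chow library, and the log2 fold change of 1.66 ± 0.56 did not pass (limma adjusted p = 0.113). Krt23 lies on chromosome 11 at 99477974 to 99493137.

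Sox9, the transcription factor of the biliary lineage, which periportal hepatocytes can also express at a low level, rose least among the markers called in liver. It had 604, 453 and 695 normalized reads in NASH livers, against 376, 366 and 296 in chow livers. The groups did not overlap, and the log2 fold change was 0.74 ± 0.17 (SE, n = 3 each; limma adjusted p = 0.00659). NASH LSEC libraries had 263, 1378 and 591 normalized reads of Sox9, against 165, 166 and 284 in chow LSEC. NASH library 1 lay below chow library 3, and the log2 fold change of 1.59 ± 0.56 did not pass (limma adjusted p = 0.129). Sox9 lies on chromosome 11 at 112782224 to 112787760.

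Hepatocytes make up most of the liver, and their markers were read beside Krt23 and Sox9. Of 10 hepatocyte markers, 8 were lower and 0 higher in NASH liver, against 21.0% of all liver genes called lower. With scaling by total reads, 6 were lower and 0 higher. The median log2 fold change of the list was then -0.63, against -1.04 with the authors' scaling. The list summed to 3029200 to 3515400 normalized reads in NASH livers and to 6336100 to 6907000 in chow livers, and no marker was at 0. The part of this shift in the Krt23 and Sox9 values was not tested. With the kit used, TruSeq RNA v2, reads do not carry their strand, so reads of Cftr, Krt7 and Tspan8 cannot be told apart from those of their antisense neighbours, none of which is listed in either table.

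RefSeq promoter windows (GRCm38.p6, 250 to 21 bases before the start site) matched 6 of the 9 markers by symbol. Shown are the 3 markers with the largest rise in liver and Krt23, the marker without one. Each is written 5′ to 3′ on the strand of its gene, with the CG dinucleotides, where DNA methylation acts, in capitals. Cldn4 is at chr5:134946955-134947184 (minus strand), Cftr at chr6:18170437-18170666 (plus), Tspan8 at chr10:115817034-115817263 (plus) and Krt23 at chr11:99493141-99493370 (minus).
Cldn4: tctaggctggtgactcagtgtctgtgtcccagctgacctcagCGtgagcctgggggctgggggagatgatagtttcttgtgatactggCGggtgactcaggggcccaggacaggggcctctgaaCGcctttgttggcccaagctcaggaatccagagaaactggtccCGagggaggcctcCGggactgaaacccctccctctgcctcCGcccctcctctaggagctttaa
Cftr: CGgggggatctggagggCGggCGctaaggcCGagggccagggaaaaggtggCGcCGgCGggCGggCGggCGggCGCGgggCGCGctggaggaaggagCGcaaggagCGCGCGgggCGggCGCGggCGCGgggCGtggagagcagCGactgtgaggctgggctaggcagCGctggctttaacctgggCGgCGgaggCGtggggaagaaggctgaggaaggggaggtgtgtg
Tspan8: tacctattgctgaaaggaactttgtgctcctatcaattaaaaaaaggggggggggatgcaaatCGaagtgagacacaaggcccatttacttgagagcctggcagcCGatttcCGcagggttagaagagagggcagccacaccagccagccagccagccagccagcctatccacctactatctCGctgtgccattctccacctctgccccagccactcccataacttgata
Krt23: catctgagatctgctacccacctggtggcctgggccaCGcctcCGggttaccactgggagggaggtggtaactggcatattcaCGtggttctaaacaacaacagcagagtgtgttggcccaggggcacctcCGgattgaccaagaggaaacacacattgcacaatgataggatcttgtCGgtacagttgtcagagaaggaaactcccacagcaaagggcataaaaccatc

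The windows of the 3 markers that rose most do not look alike. Cftr has 29 CG dinucleotides in 230 bases and a GC content of 76.1%, and 95.9% of 32851 mouse promoter windows have as many CG dinucleotides or fewer. Cldn4 has 6 (60.9% GC) and Tspan8 has 4 (53.0% GC), near the median of 5 over all windows. Krt23, with 5 CG dinucleotides and 53.0% GC, is close to Tspan8 by both measures. The log2 fold changes of Krt23 and Tspan8 in liver were -0.26 and 3.33. A link of window composition to these changes was not tested. Among the other matched markers, Krt7 has 15 CG dinucleotides and Epcam has 8.

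Short motifs of epithelial and biliary factors were looked for on both strands of the 6 windows. They were AACCNGTT for GRHL factors (in 1.68% of all windows), the HNF1 half-site GTTAAT (6.09%), GGAAGT for ETS factors (17.6%), GGAATG for TEAD factors (11.8%) and AACAAT for SOX factors (8.98%). GGAAGT and GGAATG both begin with GGAA, and each motif was counted separately. A single match was found, the ETS motif in the Krt7 window. These letters are otherwise not in the 6 windows, which says nothing of the factors themselves.

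**Figure D2:**
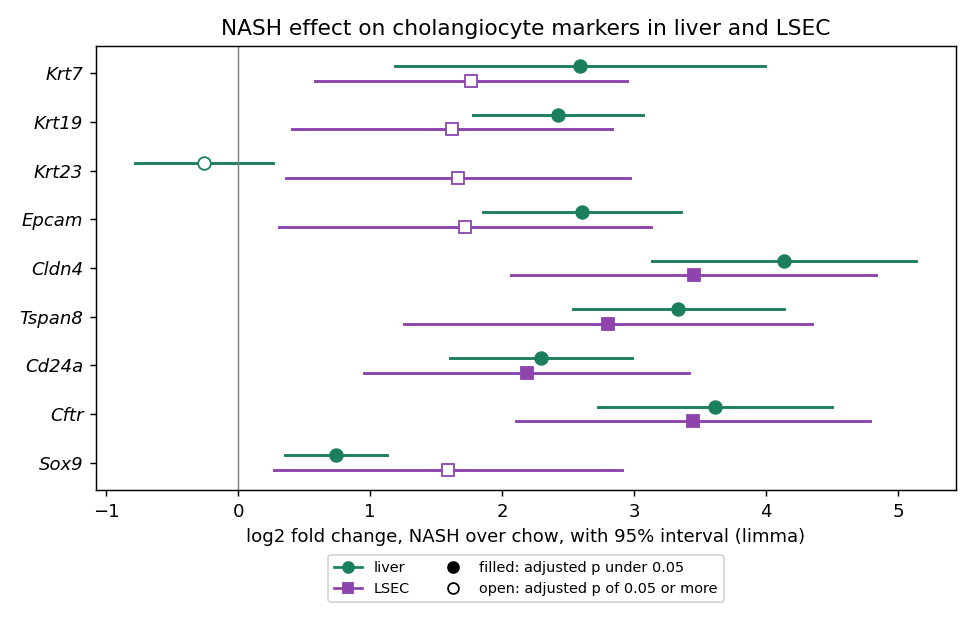
Log2 fold change (NASH over chow) of the 9 markers with 95% intervals from limma, liver (green circles) above LSEC (purple squares), filled where the adjusted p is under 0.05. Cldn4, Cftr and Tspan8 lie farthest to the right in both tissues, and Krt23 in liver is the estimate left of 0.

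By size of change, the order in liver was Cldn4 (4.14), Cftr (3.61), Tspan8 (3.33), Epcam (2.60), Krt7 (2.59), Krt19 (2.42), Cd24a (2.29), Sox9 (0.74) and Krt23 (-0.26), all as log2 fold changes. In LSEC the first 4 were Cldn4 (3.45), Cftr (3.45), Tspan8 (2.80) and Cd24a (2.19), and the other 5 lay between 1.59 and 1.76. The 95% intervals of neighbours in these orders overlap, except those of Cd24a and Sox9 and of Sox9 and Krt23 in liver. The difference between the liver and LSEC effects was tested for each gene, and 0 of the 9 markers passed, against 19.5% of 15766 genes in both tables (11.5% with a higher and 7.99% with a lower effect in liver). At an unadjusted p under 0.05 the difference was found for 1 marker, Krt23, and an edgeR interaction term on recovered reads likewise called 0.

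Krt23 was nearest to a difference between tissues, with a log2 fold change lower in liver than in LSEC by 1.93 (liver minus LSEC -1.93 ± 0.60, 95% interval -3.27 to -0.58, adjusted p = 0.0501 from the limma estimates). It passed without chow liver 3 (-2.18, adjusted p = 0.0314) and without NASH LSEC library 1 (-2.41, adjusted p = 0.0264), also from limma estimates. Sox9 also had a lower estimate in liver (-0.85, 95% interval -2.19 to 0.49), and the remaining 7 had positive estimates of 0.11 to 0.88. Krt19 passed only without NASH LSEC library 2 (1.41, adjusted p = 0.0427 from limma estimates). These intervals are wide: for Cftr the difference could lie anywhere from -1.33 to 1.66.

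**Figure D3:**
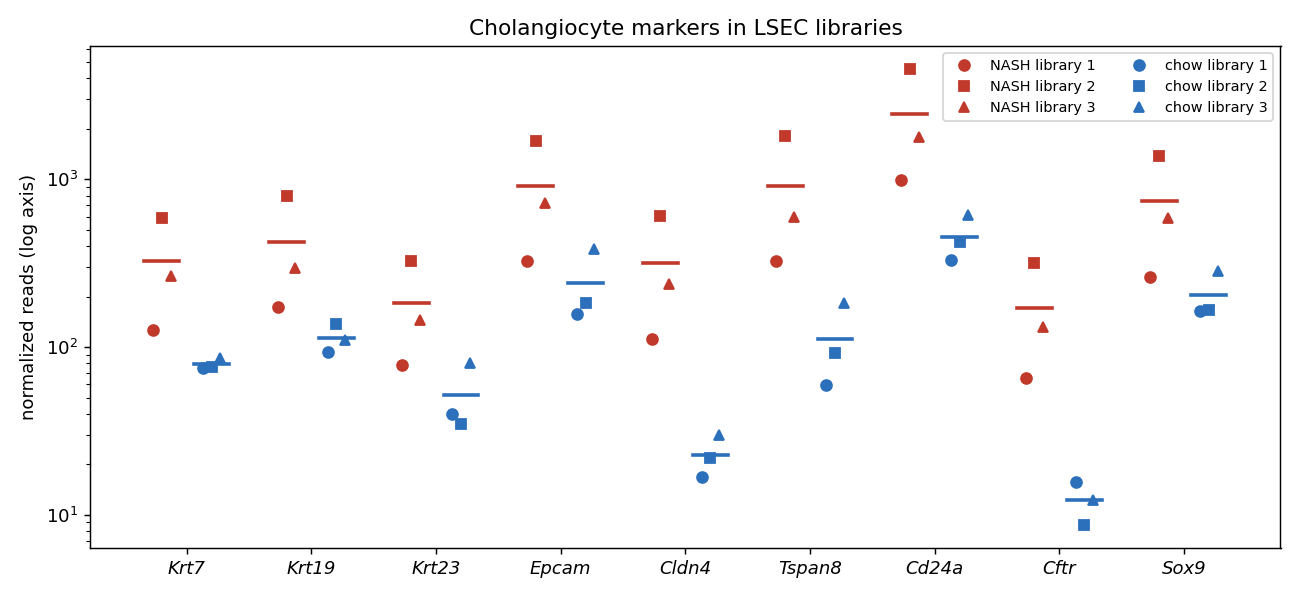
Normalized reads (log axis) of the 9 markers in LSEC libraries, 1 point per library, NASH in red to the left of chow in blue, with bars at the group means. For each marker NASH library 2 is the highest and NASH library 1 the lowest of the NASH libraries.

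Biliary transcripts in libraries of selected endothelial cells varied together from library to library. All 9 markers were highest in NASH library 2, intermediate in NASH library 3 and lowest in NASH library 1. This order was found for 18.2% of the 13816 LSEC genes that averaged at least 10 normalized reads. Library 2 exceeded library 1 by 4.16-fold (Krt23) to 5.58-fold (Tspan8), whereas 1.47% of these genes reached 4-fold. In chow LSEC, 7 of the 9 were highest in library 3, a pattern for which no share of all genes was computed. Endothelial markers did not share this order, with sums of 305860, 293090 and 327240 normalized reads in NASH LSEC 1, 2 and 3, nor did hepatocyte markers, with 35458, 46731 and 73724. Against 5.24% of all LSEC genes called higher, 6 of 9 macrophage markers were higher and 0 lower in NASH LSEC. Their sum shared this order in NASH, with 38975, 48952 and 42098 normalized reads. That spread is far narrower than that of the biliary markers. The sum did not share the high chow library 3, with 21976, 15119 and 7779 in chow. Singly, Adgre1, Clec4f and Cd5l followed the order in NASH and the others did not. Ccr2 (299, 192 and 372) and Trem2 (409, 240 and 445) were lowest in NASH library 2. None of the 9 macrophage markers was at 0, and their part in the biliary marker values was not tested.

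The 4 calls in LSEC depended on single libraries. Without NASH LSEC library 2 none of the 4 passed, with log2 fold changes of 2.86 for Cftr, 2.82 for Cldn4, 2.12 for Tspan8 and 1.59 for Cd24a (limma adjusted p = 0.0512, 0.0512, 0.105 and 0.0879). None passed without NASH library 3 (limma adjusted p of 0.0818 for Cftr to 0.137 for Cd24a) or without chow library 3 (0.0639 for Cldn4 to 0.103 for Cd24a) either. Cftr and Cldn4 alone passed without chow library 1 or chow library 2, where Cd24a had a limma adjusted p of 0.106 and 0.0863. Tspan8 lost its call without any one of the 6 libraries, by least without NASH library 1 (limma adjusted p = 0.0550). Cd24a kept its call only without NASH library 1 (2.69, limma adjusted p = 0.0449), and Cftr and Cldn4 kept theirs there too (3.99 and 4.04). Direction did not change for any of the 9 in these fits. In the authors' deposited table, the adjusted p was 7.06e-08 for Cftr, 0.00637 for Epcam and 0.0121 for Krt23 in LSEC, and all 9 markers were under 0.05.

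In liver the spread between libraries had another shape. NASH liver 2 was the lowest NASH liver for all 9 markers, as it was for 33.5% of 14324 liver genes, while NASH liver 3 was highest for 7 and NASH liver 1 for Krt7 and Cldn4. For the highest liver no share of all genes was computed. Epcam in NASH livers 1 and 3 was 2.58 and 2.69 times that in NASH liver 2. Cdh1, an adhesion gene of the wider epithelium, had 2602, 1956 and 2916 normalized reads in the same NASH livers and so a narrower spread than Epcam. None of the 8 calls in liver was lost when any 1 library was left out.

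Recovered reads were also scaled to a total of 1000000 per library (CPM), since the 2 tables were normalized separately. Epcam had 15.2 ± 7.26 CPM in NASH livers and 1.69 ± 0.264 in chow livers (SD, n = 3). LSEC libraries held more of it, 51.0 ± 39.5 in NASH and 12.2 ± 6.39 in chow. Cd24a reached 137 CPM in NASH LSEC and 23.0 in chow LSEC, against 22.9 in NASH liver and 3.55 in chow liver. Krt23 differed, with 10.2 CPM in NASH LSEC and 2.60 in chow LSEC, against 5.78 in NASH liver and 5.34 in chow liver. In chow, then, Krt23 had a higher CPM in whole liver than in LSEC libraries, while that of Epcam and Cd24a was lower. No test was run across the tables.

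Levels of different genes were compared per kilobase of exon. In NASH liver the order began with Tspan8 (420.2 normalized reads per kilobase), Cd24a (399.9) and Epcam (310.2) and ended with Krt7 (56.5) and Cftr (10.7). In chow liver it began with Krt23 (208), Sox9 (83.7) and Cd24a (82.6) and ended with Cldn4 (4.47) and Cftr (0.781). Krt23 thus had the highest level per length in chow liver and the fourth in NASH liver (167). In LSEC, Cd24a was first in both groups, with 948 normalized reads per kilobase in NASH and 177 in chow. The SDs in NASH liver were 192 for Tspan8, 128 for Cd24a and 140 for Epcam. Epcam lay below both Tspan8 and Cd24a in every NASH liver. Tspan8 lay above Cd24a in NASH livers 1 and 3 but below it in NASH liver 2 (201 against 254). The order of Tspan8 and Cd24a is therefore not resolved. The annotated exons of Krt7 span 7049 bases in union, the second longest of the set, which lowers its value per kilobase.

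To see how the markers changed relative to each other, each was divided by Epcam within its library, a comparison chosen after the values were seen. Folds between these ratios are differences of mean log2 ratios put back on a linear scale, so they are not quotients of the arithmetic means beside them. Cldn4 had 0.249 ± 0.0244 reads per Epcam read in NASH livers and 0.0822 ± 0.0333 in chow livers, 3.23-fold higher (SD, n = 3). In LSEC, Cldn4 had 0.341 ± 0.0147 reads per Epcam read in NASH and 0.101 ± 0.0216 in chow, 3.45-fold higher. Cftr had 0.133 in NASH livers and 0.0577 in chow livers (2.34-fold), and 0.189 in NASH LSEC and 0.0596 in chow LSEC (3.56-fold). Tspan8 had 1.05 reads per Epcam read in NASH livers and 0.633 in chow livers, and 0.965 in NASH LSEC and 0.454 in chow LSEC. For these 3 markers the groups did not overlap in either tissue. Because Epcam itself was higher in NASH, the same ratio was higher in every NASH than in every chow library for 1.63% of all other genes in liver and 0.928% in LSEC, and lower for 81.4% in liver and 26.6% in LSEC. A two-sided exact permutation test of 3 against 3 libraries cannot go below p = 0.10, the value each of them had, or 0.178 adjusted over the 16 ratios tested.

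For Krt7 and Krt19 the proportion to Epcam overlapped between NASH and chow. Krt19 had 0.437 ± 0.0678 reads per Epcam read in NASH livers and 0.494 ± 0.0955 in chow livers, and 0.471 ± 0.0602 in NASH LSEC and 0.541 ± 0.237 in chow LSEC. Krt7 had 0.536 and 0.457 in NASH and chow livers, with NASH liver 1 alone at 1.02, and 0.367 and 0.372 in NASH and chow LSEC. Across the 12 libraries the Krt19 ratio ran from 0.284 in chow LSEC library 3 to 0.750 in chow LSEC library 2, both of the same group.

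Krt23 and Sox9 were far lower relative to Epcam in NASH livers. In liver, Krt23 had 0.450 ± 0.220 reads per Epcam read in NASH and 3.33 ± 1.64 in chow, and Sox9 had 0.968 ± 0.369 in NASH and 3.47 ± 0.869 in chow, with no overlap for either, as for the 81.4% of all liver genes given above. In LSEC the same ratios were 0.210 ± 0.0257 in NASH and 0.216 ± 0.0317 in chow for Krt23, and 0.811 ± 0.00571 in NASH and 0.897 ± 0.156 in chow for Sox9, overlapping in both cases. The Krt23 ratio in chow was 3.33 in liver and 0.216 in LSEC, whereas the Krt19 ratio in chow was 0.494 in liver and 0.541 in LSEC. Cd24a stood at 1.62 and 2.05 in NASH and chow livers, overlapping, and 2.73 and 2.0 in NASH and chow LSEC, not overlapping. With Krt19 in place of Epcam, chosen after the values were seen, each ratio kept its direction where the groups did not overlap.

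**Figure D4:**
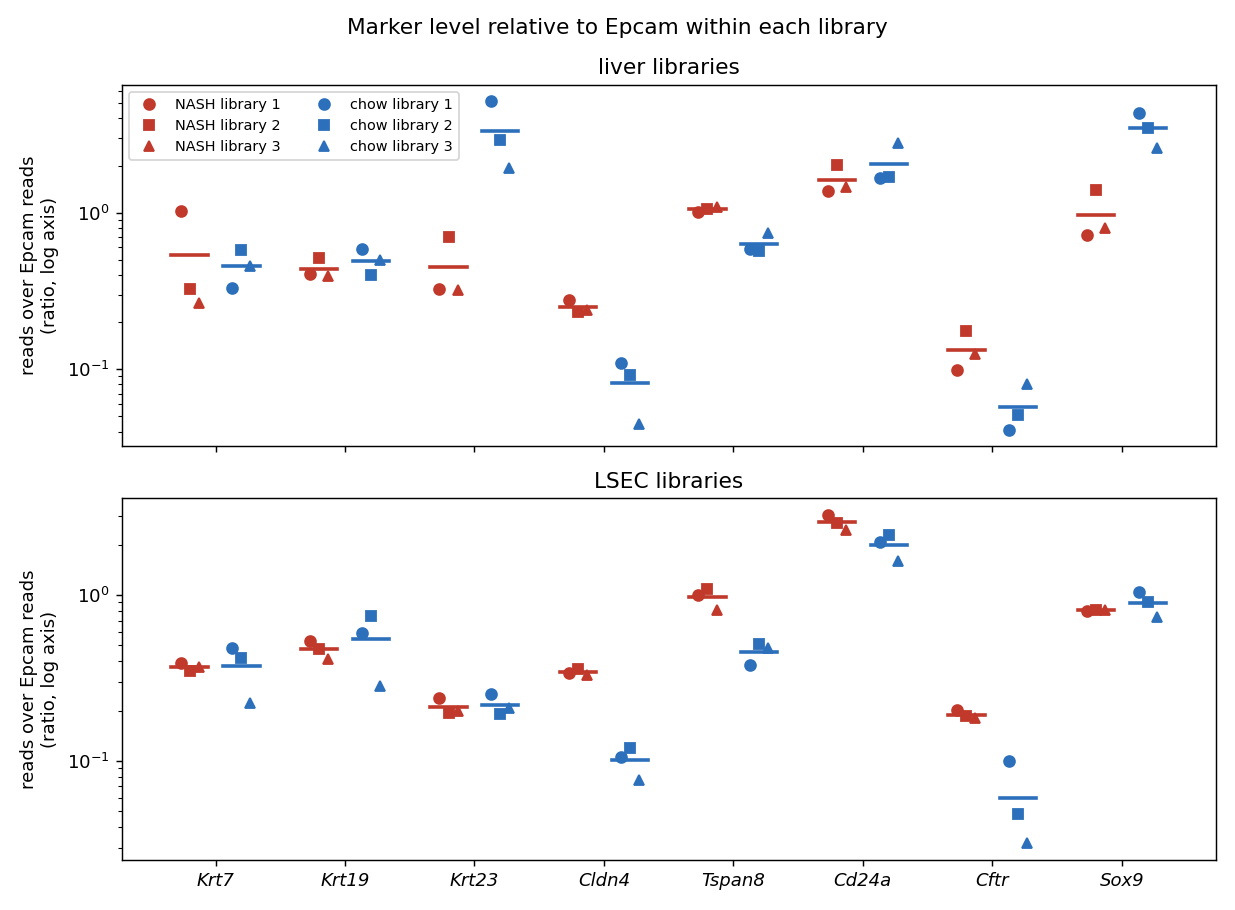
Reads of each marker per Epcam read within a library (ratio, log axis), liver above and LSEC below, NASH in red to the left of chow in blue, bars at the group means. Cldn4, Cftr and Tspan8 are higher in every NASH library than in every chow library of both tissues, and Krt23 and Sox9 are lower in NASH in the liver panel.

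Over the 6 liver libraries, the genes outside the set whose profile was most like that of Epcam were Prr15l, Spint1 and Ehf, among 12420 genes averaging at least 50 normalized reads. Their root mean square differences from Epcam were 0.13, 0.14 and 0.15 on the log2 scale, each profile centred on its own mean. All 3 lay nearer than the nearest marker of the set, Krt19, at 0.22, but they were picked as the nearest among 12420 genes. Prr15l had 216, 74.4 and 186 normalized reads in NASH livers, against 22.5, 27.0 and 30.8 in chow livers. Spint1, an inhibitor of serine proteases on epithelial cells, had 366, 169 and 341 in NASH livers, against 39.2, 50.7 and 45.1 in chow livers. Both show the dip of NASH liver 2 seen in Epcam, which the choice by likeness over these libraries favours.

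Cftr had other neighbours, Kdelr3 (0.13), Ssc5d (0.18) and Ms4a7 (0.21), of which Ms4a7 is known as a macrophage gene. Ms4a7 had 892, 648 and 1295 normalized reads in NASH livers, against 68.8, 63.7 and 103 in chow livers. The nearest marker of the set to Cftr was Tspan8, at 0.30. With 6 libraries in 2 groups, this measure includes the difference between NASH and chow itself.

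Around the markers stand other genes linked to the bile duct, followed through 8 lists, not all of them particular to duct cells. Of 8 biliary transcription factors, 6 were higher and 1 lower in NASH liver, with a list median of 1.68 on the log2 scale against 0.02 over all liver genes. For this list and those below, the shares of all liver genes called were 25.0% higher and 21.0% lower. In LSEC the shares were 5.24% higher and 2.86% lower. Elf3, an epithelial ETS factor, had 161, 106 and 173 normalized reads in NASH livers, against 9.49, 12.9 and 24.6 in chow livers (log2 fold change 3.21, limma adjusted p = 0.000119). Ehf, another factor of that family, had 358, 185 and 461 in NASH livers, against 36.8, 49.6 and 56.4 in chow livers (2.71, limma adjusted p = 0.000158). Sox4, which acts beside Sox9 in mouse duct development, had 252, 387 and 449 in NASH livers, against 55.8, 57.2 and 68.7 in chow livers (2.53, limma adjusted p = 3.86e-05). Unlike the markers, Sox4 was not lowest in NASH liver 2. Onecut2 was the factor called lower (-0.43, limma adjusted p = 0.0288), a call that was not made when libraries were scaled by total reads. In LSEC, 2 of the 8 were higher, Ehf (2.29, limma adjusted p = 0.0487) and Onecut2 (1.90, limma adjusted p = 0.0187), and 0 lower.

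Of 5 other keratins of simple epithelium, 4 were higher in NASH liver and 0 lower. Krt8, a partner keratin that hepatocytes share with duct cells, had 19748, 22139 and 19321 normalized reads in NASH livers, against 8013, 8524 and 9776 in chow livers (log2 fold change 1.22, limma adjusted p = 2.61e-05). Krt18, its usual partner, changed little in liver (0.38, limma adjusted p = 0.00829) and more in LSEC (2.10, limma adjusted p = 0.0365). Krt20 had 2.75, 2.01 and 10.5 normalized reads in NASH livers and was at 0 in all chow livers, so no fold is given. In LSEC, 2 of the 5 were higher, Krt8 and Krt18, and both followed the order of NASH libraries seen in the markers, Krt8 with 487, 1501 and 758 normalized reads.

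Of 10 genes of epithelial junction and adhesion, 6 were higher in NASH liver and 3 in NASH LSEC, and 0 were lower in either. Itgb6, an integrin subunit of injured epithelium, had 85.4, 34.2 and 103 normalized reads in NASH livers, against 3.56, 3.24 and 4.10 in chow livers (log2 fold change 3.88, limma adjusted p = 0.000119). It had 44.4, 234 and 113 in NASH LSEC, against 5.22, 3.26 and 12.3 in chow LSEC (3.92, limma adjusted p = 0.0221). Cdh1, E-cadherin, rose by 0.93 in liver (limma adjusted p = 0.000546). The size of the Itgb6 change was thus near that of Cldn4, and the change of Cdh1 near that of Sox9.

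Among 10 genes of duct transport and the secretin response, 6 were higher and 1 lower in NASH liver. Slc5a1, a sodium and glucose cotransporter, rose by 1.91 (limma adjusted p = 0.000339) and Car2, a carbonic anhydrase, by 1.15 (limma adjusted p = 0.000280). Aqp1, a water channel that duct cells share with endothelium, was lower in both tissues. It had 7649.5, 7106 and 6673 normalized reads in NASH livers, against 11152, 10813 and 11736 in chow livers (-0.65, limma adjusted p = 0.000278), and in LSEC the log2 fold change was -0.95 (limma adjusted p = 0.0310). Slc10a2, the bile acid transporter of the duct cell's apical face, was the gene of the 9 measured that was called higher in LSEC (3.21, limma adjusted p = 0.0339). It was named after its value was seen, as were the other LSEC genes outside the 3 per list.

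Of 6 genes of the primary cilium and of cystic disease, 4 were higher in NASH liver and 1 in NASH LSEC, with 0 lower. Pkhd1, mutated in recessive polycystic disease, had 814, 552 and 892 normalized reads in NASH livers, against 186, 155 and 281 in chow livers (log2 fold change 1.87, limma adjusted p = 0.000234). Bicc1, an RNA-binding protein, rose in liver (2.26, limma adjusted p = 0.000159) and in LSEC (2.18, limma adjusted p = 0.0280). Dzip1l rose by 1.96 in liver (limma adjusted p = 0.000858).

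The list closest to the ductular reaction itself had 10 of 13 genes higher and 2 lower in NASH liver. Spp1, osteopontin, had 28269, 17006 and 33266 normalized reads in NASH livers, against 1717, 2350 and 2330 in chow livers (log2 fold change 3.58, limma adjusted p = 4.24e-06). Lcn2, a lipocalin that injured hepatocytes and neutrophils also make, had 16998, 12338 and 12049 in NASH livers, against 693, 979.8 and 407 in chow livers (4.38, limma adjusted p = 3.92e-06). Ncam1, a cell adhesion molecule seen on reactive ductules, had 153, 98.5 and 207 in NASH livers, against 11.9, 8.63 and 10.3 in chow livers (3.72, limma adjusted p = 2.90e-05). The 2 lower genes were Lgr5, a Wnt-dependent receptor (-0.95, limma adjusted p = 0.00167), and Dmbt1, whose mean was 0.612 normalized reads in NASH livers and 4.89 in chow livers. Dmbt1 was not called with edgeR or with scaling by total reads. In LSEC 2 of the 13 were higher, Lcn2 (3.77, limma adjusted p = 0.0138) and Mmp7 (3.52, limma adjusted p = 0.0489), and Tnfsf12 was lower (-0.86, limma adjusted p = 0.0160).

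Notch signalling directs the duct fate, and YAP and TAZ are transcriptional regulators that respond to injury. Of 10 Notch pathway genes, 7 were higher and 0 lower in NASH liver, and in NASH LSEC 2 were higher and 0 lower. Of all genes, 25.0% were called higher in liver and 5.24% in LSEC. Hey1, a Notch target, had 171, 199 and 324 normalized reads in NASH livers, against 34.4, 25.9 and 40.0 in chow livers (log2 fold change 2.72, limma adjusted p = 7.66e-05). Heyl rose by 2.25 in liver (limma adjusted p = 0.000136) and by 1.51 in LSEC (limma adjusted p = 0.0355), and Jag1, the ligand, by 1.16 in liver (limma adjusted p = 0.000520). Of 9 genes of the YAP and TAZ list, 5 were higher and 1 lower in NASH liver, and in NASH LSEC 1 was higher and 0 lower. Ankrd1, a target gene, rose by 2.49 in liver (limma adjusted p = 0.000528) and by 2.20 in LSEC (limma adjusted p = 0.0359). Wwtr1, which encodes TAZ, and Tead1 rose by 0.75 and 0.73 in liver (limma adjusted p = 0.000970 and 0.000840), and Yap1 was lower (-0.46, limma adjusted p = 0.00119), a call not made with scaling by total reads. Genes of both lists were also high in LSEC libraries, with means in NASH of 8885 normalized reads for Notch1 and 6285 for Wwtr1. In NASH LSEC libraries 1, 2 and 3, Hey1 (411, 294 and 414) and Heyl (475, 348 and 290) did not follow the order of the markers. Ankrd1 did (204, 567 and 335). The part of endothelial and other cells in these values was not tested.

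The median log2 fold changes of the lists in liver, against 0.02 over all liver genes, were 1.86 for the ductular reaction, 1.68 for transcription factors, 1.47 for the cilium, 1.44 for junctions, 1.09 for keratins, 1.02 for Notch, 0.73 for YAP and TAZ and 0.65 for transport. In LSEC, against 6.78e-05 over all LSEC genes, they were 1.66, 1.83, 1.42, 1.63, 2.10, 0.86, 0.55 and 0.35 in the same order of lists.

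**Figure D5:**
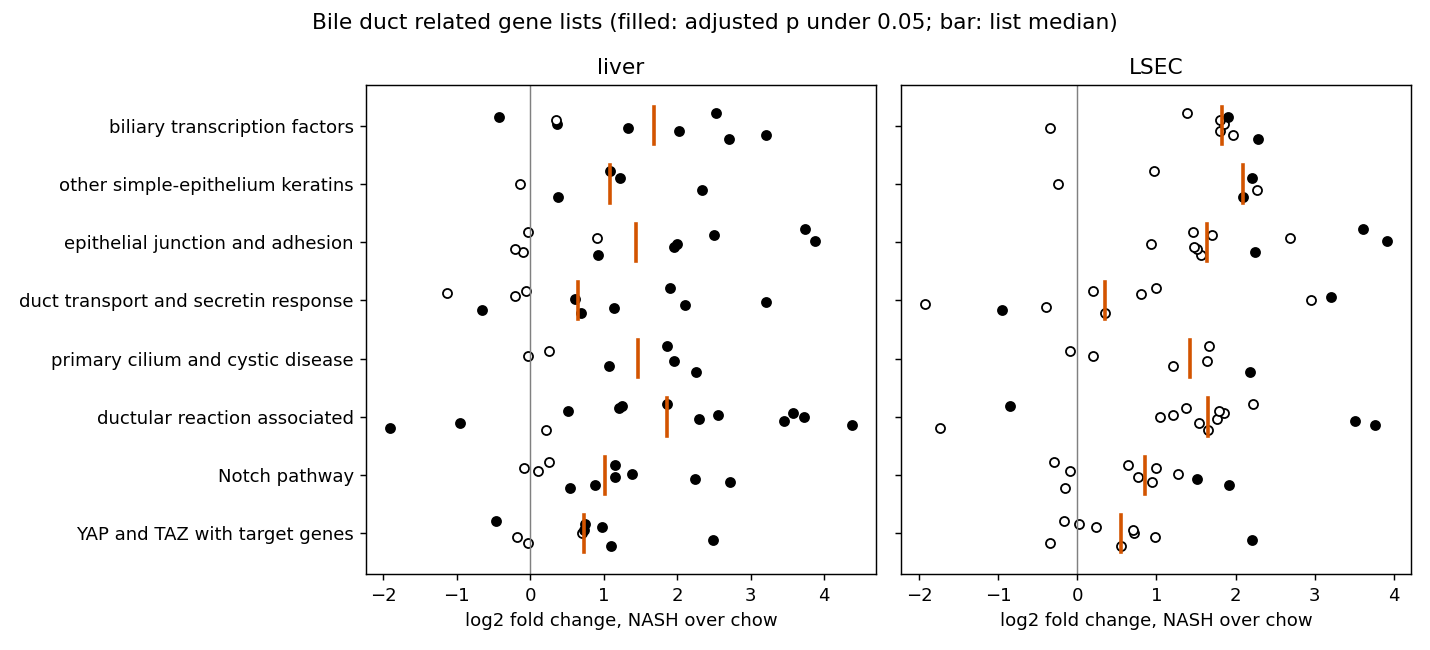
Log2 fold change (NASH over chow) of each gene in 8 bile duct related lists, liver left and LSEC right, filled where the limma adjusted p is under 0.05, with an orange bar at the list median. In liver the list medians run from 0.65 (duct transport) to 1.86 (ductular reaction), and fewer genes are filled in LSEC although all 8 medians lie right of 0.

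Genes of other cells moved in the same libraries. In NASH liver 8 of 8 proliferation markers were higher, with sums of 1113 to 1982 normalized reads in NASH and 286 to 433 in chow, and 5 of 9 stellate cell and myofibroblast markers, with sums of 23818 to 32407 in NASH and 10788 to 13042 in chow. Mesothelial cells share keratins with ducts, and 2 of their 7 measured markers were higher in NASH liver, Wt1 and Gpm6a, a share near the 25.0% of all liver genes called higher. Wt1 averaged 116 normalized reads in NASH livers and 31.1 in chow livers, and Gpm6a 322 and 137 in NASH and chow livers, while the other 5 had estimates from -1.33 (Upk3b) to -0.11 (Upk1b), none called, and the list median was -0.19 (0.21 with scaling by total reads and 0.28 with edgeR). The summed level was 497 to 692 in NASH livers and 217 to 455 in chow livers. In LSEC, 1 of the 7, Gpm6a, was higher and 0 lower (0 and 0 with edgeR), while Upk3b had 32.9, 22.4 and 12.1 normalized reads in NASH and 128, 121 and 44.0 in chow (limma adjusted p = 0.0626). Of 10 hepatocyte markers 0 passed in LSEC, with sums of 35458 to 73724 in NASH and 6959 to 83374 in chow. Macrophage markers had 7 of 9 higher and 1 lower in NASH liver, T and NK cell markers 6 of 7 higher in liver and 0 of 7 in LSEC, and erythroid markers 1 of 3 lower in liver and 0 of 1 in LSEC. Endothelial markers had 2 of 10 higher and 4 lower in NASH liver (4 and 3 with scaling by total reads). In NASH LSEC, 2 of the 10 were higher and 3 lower (2 and 1 with scaling by total reads). There 3 of 8 proliferation and 3 of 9 stellate cell markers were higher. Of all genes, 25.0% were called higher and 21.0% lower in liver, and 5.24% higher and 2.86% lower in LSEC. No marker of these lists was at 0 in all libraries, and the part of these cells in the marker values was not tested.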

How the data were processed

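RNA-seq of 12 mouse libraries was used, 3 per group. The authors deposited 1 table per tissue with a normalized signal per gene and library, log2 fold changes and p-values. The submitters' processing notes name FastQC, STAR, HTSeq, DESeq2 and the build mm10, without versions or order. Each value is a whole multiple of 1 step per library (100% of values within 0.01), which gives back the reads and the depth. How the authors' scaling was set is not given in the sources used here. Of the gene names, 22 per table had been turned into dates.

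Normalized reads were tested as log2(value + 1), with no filter, by limma 3.58.1 with a variance trend (R 4.3.3), separately for each table. Benjamini-Hochberg adjustment ran over all genes, and an adjusted p under 0.05 is a call. Fold changes on this scale understate changes of low genes. The difference between tissues is that of both limma estimates, with Satterthwaite degrees of freedom, over genes in both tables. Libraries within a group differed by more than sampling noise (chi-square per degree of freedom 16.4 to 96.2), so none was merged. Alternatives were edgeR 4.0.16 with its quasi-likelihood test and DESeq2 1.42.0 on recovered reads, other pseudocounts, a minimum mean of 10, scaling by total reads, a replicate block and each library left out. Ratios to Epcam were computed from recovered reads and tested with scipy 1.17.1. The fits were also run on simulated data with few changed genes, which does not test the choice of scaling.

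Markers and lists were chosen with earlier results of these data known. Named genes were all 9 markers, the 3 genes per pathway list with the smallest adjusted p in liver, and the top 2 per list of other cells; 1 gene that the rule names is not reported here. Gene positions come from GENCODE M21 and promoter sequences from RefSeq.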

Additional observations from a re-analysis of the deposited data

Results flagged for a closer look

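Whether the response to NASH differs from liver to LSEC was tested for 70 genes of the bile duct lists measured in both tables. Of these, 14 passed (limma estimates, adjusted over all genes in both tables), a share near the 19.5% of all genes that passed. None of the 9 markers passed this test. Of the 14, the 8 that are named above are given here. Ncam1 rose more in liver, with a log2 fold change of 3.72 in liver and 1.05 in LSEC, a difference of 2.67 (adjusted p = 0.00429). Hey1, the Notch target, had 2.72 in liver and 0.94 in LSEC, a difference of 1.78 (adjusted p = 0.00308). Car2, the carbonic anhydrase, was higher in NASH liver (1.15) and had an estimate of -0.39 in LSEC, a difference of 1.54 (adjusted p = 0.00146). Wwtr1 had 0.75 in liver and 0.01 in LSEC, a difference of 0.74 (adjusted p = 0.00490). Tnfsf12 was higher in NASH liver (1.24) and lower in NASH LSEC (-0.86), a difference of 2.10 (adjusted p = 3.83e-06). Krt18 went the other way, with 0.38 in liver and 2.10 in LSEC, a difference of -1.71 (adjusted p = 0.0346). Onecut2 had -0.43 in liver and 1.90 in LSEC, a difference of -2.33 (adjusted p = 0.00140), and Slc10a2 had 0.61 in liver and 3.21 in LSEC, a difference of -2.60 (adjusted p = 0.0319).

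Among the mesothelial genes and the profile neighbours of Epcam and Cftr named above, 3 passed the same test. The macrophage genes named above are not covered by this count. The mesothelial marker Wt1 had 1.91 in liver and -0.26 in LSEC, a difference of 2.17 (adjusted p = 0.0361). Of the genes nearest to Cftr in profile, Kdelr3 had 3.76 in liver and 1.75 in LSEC, a difference of 2.0 (adjusted p = 0.0219), and Ssc5d had 3.61 in liver and 2.08 in LSEC, a difference of 1.53 (adjusted p = 0.0187).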

How the results depend on the processing

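Liver results held: all 8 marker calls remained under each alternative and with each library left out, where 5863 to 7407 genes were called. Scaling by total reads moved the median of all liver genes to 0.43 and of LSEC genes to 0.14 (log2), giving 7878 liver genes higher and 904 lower, 273 LSEC genes lower, and for the difference between tissues, a setting chosen after seeing the data, 3237 higher and 669 lower. It turned Krt23 in liver to 0.15. In LSEC, 2 markers passed with a pseudocount of 10 and 9 with DESeq2, which called 2503 genes, 1581 higher and 922 lower. Leaving out 1 LSEC library left 0 to 4 markers and 124 to 1171 genes, 75 to 793 higher and 49 to 378 lower. For the difference, leaving out 1 library gave 0 to 1 markers and 1840 to 3171 genes, 1193 to 1851 higher and 631 to 1423 lower. Small differences changed sign: Cftr to -0.26 with a pseudocount of 10, Cd24a to -0.064 with the edgeR interaction, and with 1 library left out Cftr (-0.37 to 0.75), Cd24a (-0.40 to 0.70) and Tspan8 (-0.022 to 1.22). The causes were not tested.

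With the replicate number as a block, 7447 liver genes and 8 markers were called. Same-numbered livers showed no clear shared deviation (r = -0.0135, -0.0157 and 0.0981, against -0.0859 to 0.0898 for the other pairs). With 3 libraries per group this check cannot exclude a pairing, and the labels state none. No paired analysis was possible for LSEC because the columns carry no replicate number. Depth limits Cftr and Cldn4 in chow livers most, with 3 to 9 and 5 to 9 recovered reads.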
